A study of Homo sapiens with 16 samples.

Results

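The genes described are 46 heat shock proteins, chaperones and co-chaperones, taken by symbol from a list of these families and found among the 62703 genes of the count table. They comprise 6 HSP70, 3 HSP110, 2 HSP90, 9 HSP40, 3 small heat shock protein, 2 mitochondrial chaperonin, 8 CCT and 3 BAG genes, 8 co-chaperones and the transcription factors HSF1 and HSF2. Of these, 45 passed the expression filter and are in the deposited table of log2 levels. DNAJB4 had too few counts to be tested.

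Messenger RNA was counted by BRB-seq, in which each sample is barcoded at reverse transcription and only the 3′ end of a polyadenylated transcript is sequenced, in spheroids of 3 human prostate cancer cell lines. Before this, cells received 25 pmol of small interfering RNAs (siRNAs), either pooled against MED12, which belongs to the kinase module of Mediator (siMED12), or a non-targeting pool (siCtrl). They were then grown for 3 days in 2D and harvested after 4 further days as spheroids. LNCaP is androgen dependent, 22Rv1 is androgen responsive, and PC3 is androgen independent. Each line had siCtrl replicates 1 to 3, LNCaP also had siMED12 replicates 1 to 3, and for 22Rv1 and PC3 the 2 siMED12 libraries were replicates 1 and 3. Each treatment was a single siRNA pool, so an effect of the target cannot be told apart from another effect of that pool. The labels do not say whether libraries of a group came from separate cultures, so p-values measure only the spread between these libraries.

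Library totals were 479118 to 993807 counts, and intervals and limits given for counts cover counting error only. MED12 itself was at 9.94 to 12.9 CPM (counts scaled to a common library size) in LNCaP siCtrl and 6.67 to 10.3 in LNCaP siMED12, at 16.7 to 23.4 and 7.42 to 8.98 in 22Rv1, and at 8.41 to 28.4 and 14.5 to 15.8 in PC3. Its log2 fold change was −0.50 ± 0.46 (SE, edgeR adjusted p = 0.878), −1.28 ± 0.46 (adjusted p = 0.175) and −0.22 ± 0.43 (adjusted p = 0.987), so the difference passed the test in no line, at 5 to 22 MED12 counts per library. The paper reports a highly efficient knockdown of MED12 in its spheroids. The lines were checked with 4 androgen-regulated genes (KLK3, KLK2, TMPRSS2 and FOLH1), whose summed level was 5158 to 5910 CPM in LNCaP siCtrl, 243 to 284 in 22Rv1 siCtrl and 40.0 to 63.2 in PC3 siCtrl, and with 5 genes high in PC3 (VIM, CD44, CAV1, AXL and S100A2), summing to 78.8 to 154, 98.8 to 107 and 2266 to 3144. TMPRSS2 by itself overlapped between 22Rv1 siCtrl (9.11 to 19.25 CPM) and PC3 siCtrl (8.41 to 34.8). The third siMED12 libraries of 22Rv1 and PC3 stood apart. S100A2 was at 51.3 CPM in the former, against 3.90 to 10.3 in the other 22Rv1 libraries, and KLK3 was at 58.1 CPM in the latter, against 6.59 to 18.8 in the other PC3 libraries. Markers of another line thus had counts in the remaining libraries too, with S100A2 at 9.54 to 28.2 CPM in LNCaP siCtrl. The part of this in the results was not tested. Calls of a siMED12 effect among the listed genes that change without these libraries are given with both values.

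Chaperones hold unfolded proteins and help them to fold. HSP70 proteins bind exposed hydrophobic stretches and use ATP to release them, HSP40 proteins (J proteins) deliver clients and trigger that ATP use, and HSP110 and BAG proteins exchange the nucleotide. HSP90 acts later, with co-chaperones, on clients that include kinases and steroid hormone receptors, while the CCT ring folds actin and tubulin. Some of these genes are transcribed at all times, and others rise after heat or other proteotoxic stress, when HSF1 binds repeats of the heat shock element in their promoters. Not every gene of the list acts in the cytosol: HSPA9, DNAJA3, HSPD1 and HSPE1 are mitochondrial, and HSPB11, also called IFT25, belongs to the intraflagellar transport complex despite its name.

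The promoter windows below belong to genes that were lower with siMED12 in LNCaP (DNAJB1 and HSPA1B) or did not pass the test (HSPA1A, HSP90AA1 and HSP90AB1). The last 3 are examples of near copies or heat shock factor targets. Other genes with a match that did not pass, such as DNAJB6 and HSPA8, are not shown. The windows are RefSeq sequences of build GRCh38.p14, read 5′ to 3′ on the strand of the gene, all upstream of the annotated start. Capitals mark GAANNTTC in the first 3 and the longer form, in which TTCNN comes directly before GAANNTTC, in the HSP90 genes.
DNAJB1: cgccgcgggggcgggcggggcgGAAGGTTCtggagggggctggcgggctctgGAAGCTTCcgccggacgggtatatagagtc
HSPA1B: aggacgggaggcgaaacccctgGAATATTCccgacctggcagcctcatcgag
HSPA1A: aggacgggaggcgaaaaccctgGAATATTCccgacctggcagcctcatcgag
HSP90AA1: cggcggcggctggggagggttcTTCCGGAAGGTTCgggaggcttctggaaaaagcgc
HSP90AB1: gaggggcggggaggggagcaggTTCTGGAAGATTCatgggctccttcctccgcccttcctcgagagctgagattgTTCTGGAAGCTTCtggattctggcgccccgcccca
The DNAJB1 window lies at chr19:14518415-14518496 on the minus strand, with matches starting 77 and 47 bases before the start. The HSPA1B window lies at chr6:31827611-31827662 and the HSPA1A window at chr6:31815415-31815466, both on the plus strand. Their matches start 105 and 106 bases before the start. The HSP90AA1 window is at chr14:102087098-102087154 (minus strand, 88 bases before the start) and the HSP90AB1 window at chr6:44247756-44247865 (plus strand, 165 and 112 bases before the start). None of these windows overlaps an annotated exon, but those of DNAJB1, HSP90AA1 and HSP90AB1 lie within the span that Gencode gives the gene, since longer transcripts start further upstream.

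RefSeq promoter windows of 300 bases, from 250 before to 50 after a start, were matched for 39 of the 46 genes. The longer form, searched on both strands, was found in a window of 7 genes (HSPA8, HSP90AA1, HSP90AB1, DNAJA1, DNAJB6, HSPD1 and CHORDC1), that is in 12.5% of their 56 windows against 0.49% of all 35116 windows. The shorter GAANNTTC, which is contained in it, was found for 16 genes, in 30.4% of their windows against 6.77% of all. TTCNNGAA was found for 12 genes, in 21.4% against 7.74%. By family, GAANNTTC was found for 2 of 2 HSP90 genes, 3 of 5 HSP70 genes, 4 of 9 HSP40 genes and 2 of 7 CCT genes with a window. A match is a run of letters only, and binding was not measured.

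The first comparison was of levels between the lines in siCtrl spheroids. Tags come from the 3′ end of a transcript whatever its length, so levels of different genes are compared as CPM of 3′ tags, with no length scaling. Whether copies of the same molecule were collapsed is not stated, so a tag need not be a separate transcript. The 46 genes together summed to 15670 to 16220 CPM in LNCaP, 15530 to 17630 in 22Rv1 and 18120 to 20000 in PC3. Over all 16 libraries they took 1.37% to 2% of the counts. HSP90AB1, the constitutive cytosolic HSP90, was the highest of them in each line, with a mean of 2307 CPM in LNCaP, 2627 in 22Rv1 and 4024 in PC3. HSPA8, the constitutive HSP70, and HSPD1, the mitochondrial chaperonin of the HSP60 type, followed in all 3 lines. At the low end, HSPB8 had 0 counts in the 3 LNCaP siCtrl libraries and DNAJA4 had 0 in those of LNCaP and of 22Rv1.

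**Figure D1:**
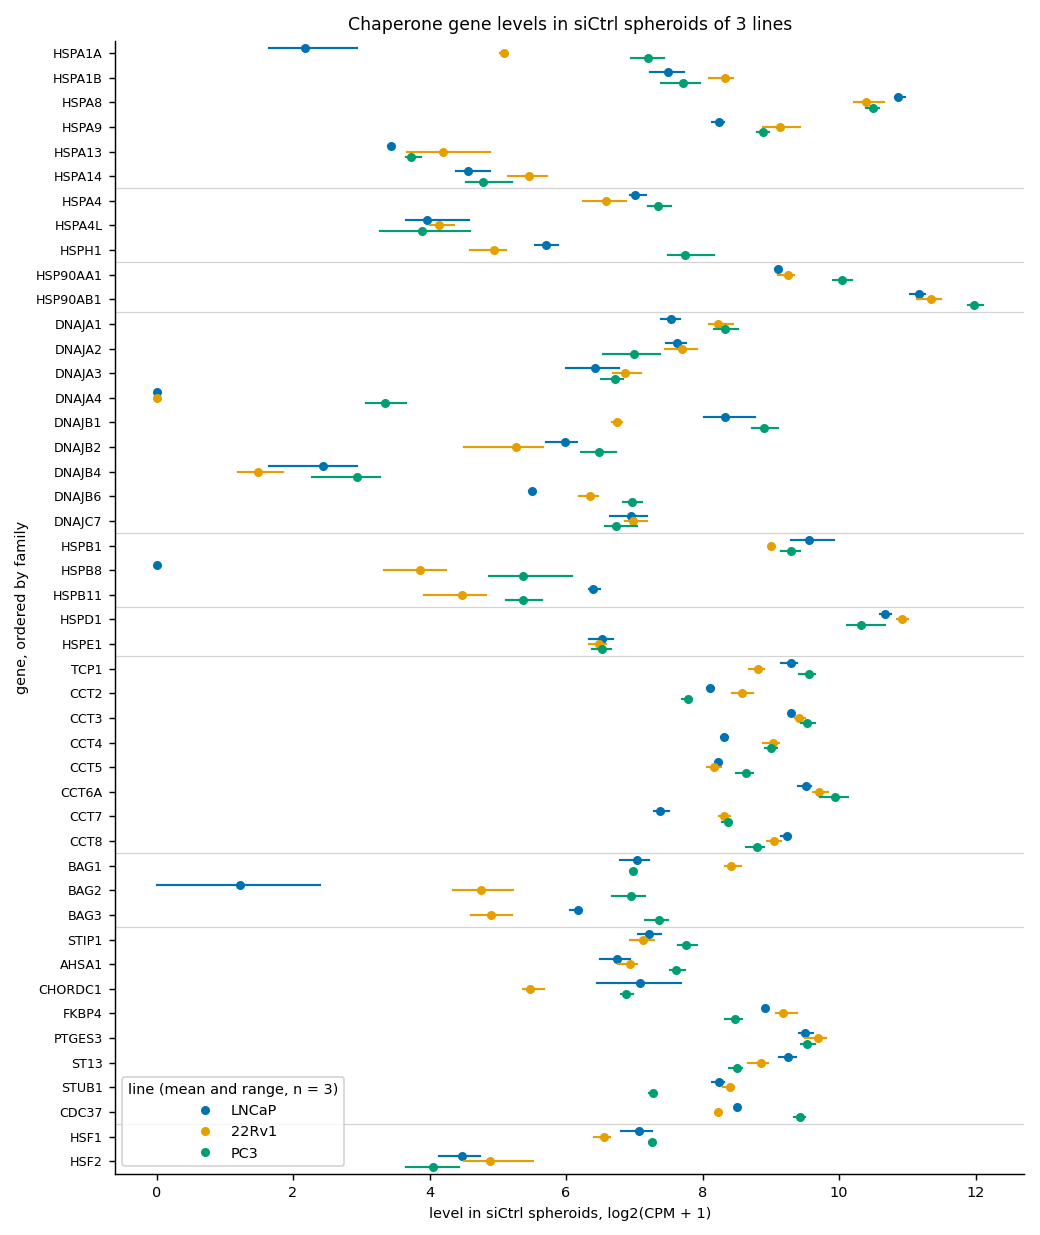
Level of each of the 46 genes in siCtrl spheroids as log2(CPM + 1), by family, with the mean (point) and range (line) of 3 libraries per line. HSP90AB1 is at the top in each line, and HSPA1A, HSPH1, BAG2 and BAG3 are highest in PC3.

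In edgeR's quasi-likelihood test with Benjamini-Hochberg adjustment over 10566 genes, at a threshold of 0.05, 12 of the 45 genes were higher and 11 lower in 22Rv1 than in LNCaP, where 22% of all tested genes were higher and 21.2% lower. In PC3 against LNCaP 20 were higher and 9 lower (29.2% and 25.5% of all genes). In PC3 against 22Rv1 20 were higher and 10 lower (28.7% and 26.1%). The median log2 difference over the 45 genes was 0.15, 0.28 and 0.12 in these comparisons, and over all tested genes 0.00, 0.05 and 0.01. The 3 comparisons share their siCtrl libraries.

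The HSP90 genes were higher in PC3. HSP90AA1, the stress-inducible cytosolic form, was at 568, 553 and 535 CPM in the LNCaP libraries, 635, 548 and 644 in 22Rv1, and 1035, 1162 and 965 in PC3. Every PC3 library exceeded every library of the other lines. The log2 difference was 0.94 ± 0.11 (SE, edgeR adjusted p = 2.2e-08) against LNCaP and 0.79 ± 0.11 (adjusted p = 4.6e-07) against 22Rv1. HSP90AB1 was at 2109, 2357 and 2456 CPM in LNCaP, 2892, 2256 and 2734 in 22Rv1 and 4417, 3852 and 3803 in PC3. Here too the PC3 libraries lay above all others, by 0.80 ± 0.11 (adjusted p = 2.7e-07) and 0.61 ± 0.11 (adjusted p = 2.0e-05). Between 22Rv1 and LNCaP neither HSP90 gene passed the test, with differences of 0.15 (95% interval −0.09 to 0.38) for HSP90AA1 and 0.19 (−0.04 to 0.41) for HSP90AB1.

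Among the HSP70 genes the inducible HSPA1A varied most. It had 4, 2 and 2 counts in the LNCaP siCtrl libraries, and its level was 33.8, 31.8 and 33.4 CPM in 22Rv1 and 147, 171 and 123 CPM in PC3. The lines did not overlap. The ratio of its counts, scaled as for CPM, was 9.29 (exact 95% interval 4.47 to 22.3) for 22Rv1 over LNCaP and 42.0 (21.1 to 98.1) for PC3 over LNCaP. Between PC3 and 22Rv1 the log2 difference was 2.16 ± 0.20 (edgeR adjusted p = 1.5e-11). Its neighbour HSPA1B, which encodes a nearly identical protein, was in another order, at 182, 212 and 149 CPM in LNCaP, 349, 271 and 346 in 22Rv1 and 218, 249 and 168 in PC3. It was higher in 22Rv1 than in LNCaP (0.85 ± 0.17, adjusted p = 0.00014) and lower in PC3 than in 22Rv1 (−0.60 ± 0.17, adjusted p = 0.0027). PC3 and LNCaP overlapped, with a difference of 0.25 (95% interval −0.11 to 0.60, adjusted p = 0.24).

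HSPA1A therefore made up a different share of the summed HSPA1A and HSPA1B counts in each line: 1.97% in LNCaP siCtrl (8 counts of HSPA1A to 399 of HSPA1B, exact 95% interval 0.852% to 3.84%), 9.21% in 22Rv1 siCtrl (7.26% to 11.5%) and 41.0% in PC3 siCtrl (37.7% to 44.3%). Library by library it was 1.33% to 3.51%, 8.78% to 10.5% and 40.3% to 42.3%. In siMED12 spheroids it was 1.03% (0.124% to 3.66%), 9.89% (7.52% to 12.7%) and 39.2% (33.9% to 44.6%), so within each line the intervals of the treatments overlapped. HSPA1A (chr6:31815543-31817946) and HSPA1B (chr6:31827738-31830254) lie 9791 bases apart on the plus strand of GRCh38. Their Gencode transcripts are 91.9% identical along the whole length but 53% along the last 150 bases, where a 3′ tag falls, and their promoter windows are 92% identical. How reads that map to both were counted is not stated in the sources used here, so the split between them is uncertain where a tag lies in the shared part.

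**Figure D2:**
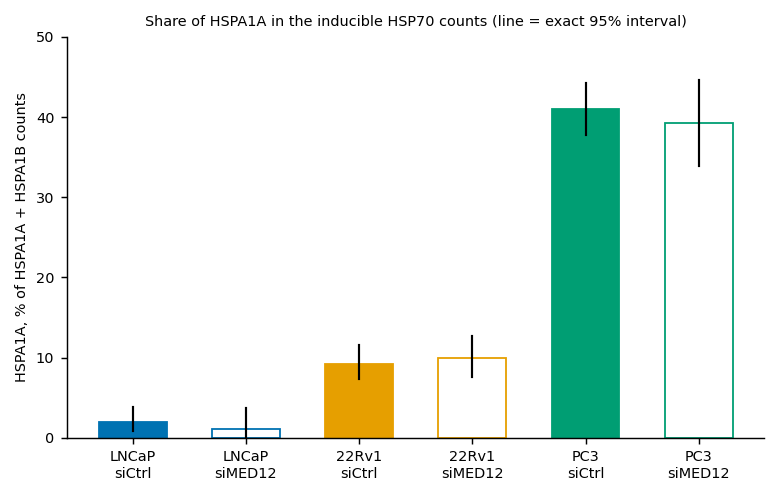
HSPA1A as a percentage of the HSPA1A and HSPA1B counts, pooled over the libraries of each group (bars, filled for siCtrl and open for siMED12) with exact 95% intervals. The share is 1.97%, 9.21% and 41.0% in the siCtrl groups of LNCaP, 22Rv1 and PC3, and the interval of each siMED12 bar overlaps that of siCtrl in the same line.

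The other HSP70 genes differed less. HSPA8 was at 1798, 1999 and 1797 CPM in LNCaP, 1620, 1242 and 1196 in 22Rv1 and 1542, 1439 and 1350 in PC3. It was lower in 22Rv1 (−0.46 ± 0.13, edgeR adjusted p = 0.0037) and in PC3 (−0.37 ± 0.13, adjusted p = 0.014) than in LNCaP, although the call in PC3 was lost without LNCaP siCtrl replicate 2 (adjusted p = 0.075) or PC3 siCtrl replicate 3 (adjusted p = 0.072). HSPA14, a ribosome-associated HSP70, was higher in 22Rv1 than in LNCaP (43.6 ± 8.61 against 22.9 ± 4.99 CPM, SD, n = 3, edgeR adjusted p = 0.0088), a call lost without LNCaP siCtrl replicate 3 (adjusted p = 0.055).

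HSPH1, a heat-inducible HSP110 that exchanges the nucleotide of HSP70, was at 58.0, 50.1 and 45.6 CPM in LNCaP, 33.8, 33.4 and 23.1 in 22Rv1 and 285, 180 and 189 in PC3. The PC3 libraries stood above all others, with a log2 difference of 2.10 ± 0.21 (edgeR adjusted p = 4.3e-10) from LNCaP and 2.86 ± 0.23 (adjusted p = 4.5e-12) from 22Rv1. The lower level in 22Rv1 than in LNCaP (−0.76 ± 0.29, adjusted p = 0.034) was lost without LNCaP siCtrl replicates 1 (adjusted p = 0.11) or 2 (0.070), or 22Rv1 siCtrl replicate 3 (0.16). HSPA4, the constitutive HSP110, spanned 75.2 to 184 CPM over all siCtrl libraries.

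Of the HSP40 genes, DNAJB1, the heat-inducible J protein that partners HSP70 in the cytosol, was at 288, 437 and 258 CPM in LNCaP siCtrl, 107, 112 and 101 in 22Rv1 and 462, 548 and 422 in PC3. The 22Rv1 libraries were the lowest and did not overlap with the others, while LNCaP replicate 2 lay within the PC3 range. The log2 difference was −1.61 ± 0.17 (edgeR adjusted p = 3.5e-09) for 22Rv1 against LNCaP and 2.17 ± 0.17 (adjusted p = 1.3e-12) for PC3 against 22Rv1. For PC3 against LNCaP it was 0.55 ± 0.15 (adjusted p = 0.0020), or 0.35 (adjusted p = 0.065) without LNCaP siCtrl replicate 3. DNAJA1, a farnesylated partner of HSP70, was at 168 to 202 CPM in LNCaP, 271 to 348 in 22Rv1 and 288 to 366 in PC3, and the higher level in 22Rv1 and PC3 passed the test (0.71 ± 0.14, adjusted p = 0.00011, and 0.80 ± 0.14, adjusted p = 9.9e-06). DNAJB6, which prevents aggregation of polyglutamine proteins, rose in the order LNCaP (44.1 ± 0.965 CPM), 22Rv1 (81.2 ± 8.22) and PC3 (125 ± 11.6, SD, n = 3), each neighbour in that order passing the test. DNAJA4 had 22 counts in the PC3 libraries, at least 2.27-fold above LNCaP and 2.17-fold above 22Rv1 when the latter are set to the limit of 3 counts per library that a count of 0 allows.

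The nucleotide exchange factors of the BAG family differed in opposite directions. BAG3, which links HSP70 to small heat shock proteins and autophagy, was at 74.6, 74.5 and 65.7 CPM in LNCaP, 28.6, 23.4 and 35.9 in 22Rv1 and 172, 179 and 142 in PC3. The lines did not overlap, and the 3 differences passed the test (−1.25 ± 0.24, edgeR adjusted p = 6.1e-05, for 22Rv1 against LNCaP, 1.21 ± 0.18, adjusted p = 6.8e-07, for PC3 against LNCaP, and 2.46 ± 0.21, adjusted p = 9.7e-12, for PC3 against 22Rv1). BAG1 was highest in 22Rv1, at 376, 324 and 321 CPM against 148, 138 and 110 in LNCaP and 126, 126 and 121 in PC3. 22Rv1 differed by 1.39 ± 0.14 (adjusted p = 1.1e-09) from LNCaP, PC3 by −1.45 from 22Rv1, and between PC3 and LNCaP the difference was within its error (−0.06, 95% interval −0.37 to 0.25). BAG2 had 5 counts in LNCaP siCtrl, 58 in 22Rv1 and 303 in PC3. Scaled as for CPM, these are ratios to LNCaP of 12.1 (exact 95% interval 4.91 to 38.8) and 56.3 (23.8 to 174.5).

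HSPB1 (HSP27), a holdase that keeps unfolded proteins soluble, was at 968, 698 and 626 CPM in LNCaP, 509, 520 and 506 in 22Rv1 and 565, 686 and 639 in PC3. It was lower in 22Rv1 than in LNCaP (−0.57 ± 0.14, edgeR adjusted p = 0.0013) and did not pass the test between PC3 and either line, although without LNCaP siCtrl replicate 3 PC3 was lower than LNCaP (−0.44, adjusted p = 0.016). With the replicate number as a block, HSPB1 in PC3 passed against both LNCaP (−0.26, adjusted p = 0.031) and 22Rv1 (0.30, adjusted p = 0.017). HSPB8, the small heat shock protein bound by BAG3, was at 9.11 to 18.0 CPM in 22Rv1 and 28.4 to 67.1 in PC3, at least 3.49-fold and 10.6-fold above the limit of 3 counts per library that its 0 counts in LNCaP allow. HSPB11 was highest in LNCaP, at 83.1 ± 5.56 CPM against 22.2 ± 7.07 in 22Rv1 and 40.9 ± 7.78 in PC3 (SD, n = 3, all 3 differences past the edgeR threshold).

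The CCT ring is built of 8 different subunits in equal number, and calls among their genes went in both directions, as they did over all tested genes. In PC3 against LNCaP 5 of 8 subunit genes were higher and 2 lower, where 29.2% and 25.5% of all tested genes were. In 22Rv1 against LNCaP 3 were higher and 1 lower (22% and 21.2% of all tested genes). In PC3 against 22Rv1 2 were higher and 1 lower (28.7% and 26.1%). CCT7 was at 155 to 182 CPM in LNCaP, 301 to 336 in 22Rv1 and 312 to 345 in PC3, and CCT4 had means of 317 ± 12.1, 523 ± 44.7 and 513 ± 31.9 CPM (SD, n = 3). CCT8 ran the other way, at 601 ± 32.2, 527 ± 38.0 and 443 ± 40.9 CPM, of which PC3 against LNCaP passed the test. TCP1, the subunit also called CCT1, was at 654, 665 and 564 CPM in LNCaP, 476, 410 and 461 in 22Rv1 and 792, 800 and 683 in PC3. It was lower in 22Rv1 than in LNCaP (−0.48 ± 0.12, edgeR adjusted p = 0.0011), and its higher level in PC3 than in LNCaP (0.28 ± 0.11, adjusted p = 0.036) was lost without LNCaP siCtrl replicate 3 (adjusted p = 0.31), PC3 siCtrl replicate 1 (0.10) or PC3 siCtrl replicate 2 (0.12). The summed level of the ring was 3575 to 3683 CPM in LNCaP, 3866 to 4268 in 22Rv1 and 4080 to 4707 in PC3.

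For the mitochondrial chaperonin, HSPD1 was lower in PC3 than in 22Rv1 (1298 ± 293.2 against 1944 ± 108 CPM, SD, n = 3, −0.58 ± 0.13, edgeR adjusted p = 0.00030). Against LNCaP (1633 ± 96.6 CPM) the PC3 difference was −0.33 ± 0.13 (adjusted p = 0.031), and it was lost without either of LNCaP siCtrl replicates 1 and 3 or PC3 siCtrl replicates 1 and 3, with adjusted p from 0.056 to 0.18. Its partner HSPE1 was level across the lines at 79.5 to 102 CPM, with no difference past the test. Processed pseudogenes named for HSPE1 held 38.9% of the counts of gene and pseudogenes together, so its level is uncertain. For ST13 this share was 9.66%, and for every other gene of the list with named pseudogenes it was below that.

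Among HSP90 co-chaperones, CDC37, which loads kinases, was at a mean of 688 CPM in PC3 against 361 in LNCaP and 298 in 22Rv1, and STIP1 and AHSA1 were also higher in PC3 than in both other lines. STUB1, the ubiquitin ligase CHIP that sends HSP70 and HSP90 clients to the proteasome, was at 316, 279 and 312 CPM in LNCaP, 346, 313 and 353 in 22Rv1 and 156, 148 and 156 in PC3. The PC3 libraries lay below all others, by −0.98 ± 0.13 (edgeR adjusted p = 2.1e-07) and −1.14 ± 0.13 (adjusted p = 1.0e-08). ST13 (HIP), which steadies the ADP state of HSP70, fell in the order LNCaP (608 ± 53.4 CPM), 22Rv1 (464 ± 51.6) and PC3 (362 ± 26.3, SD, n = 3). CHORDC1 was lower in 22Rv1 than in LNCaP (−1.66 ± 0.24, adjusted p = 9.8e-07), its LNCaP libraries spreading from 86.9 to 205 CPM. HSF1, the heat shock transcription factor, was at 111 to 152 CPM in LNCaP, 83.6 to 98.9 in 22Rv1 and 147 to 156 in PC3. It was lower in 22Rv1 than in LNCaP (−0.53 ± 0.16, adjusted p = 0.0072, or 0.071 without LNCaP siCtrl replicate 3) and higher in PC3 than in 22Rv1 (0.70 ± 0.16, adjusted p = 0.00035). HSF2 was lower in PC3 than in 22Rv1 (11.6 to 20.6 against 21.7 to 44.9 CPM, edgeR adjusted p = 0.020), a call lost without 22Rv1 siCtrl replicate 3 (adjusted p = 0.23) or PC3 siCtrl replicate 3 (0.074).

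**Figure D3:**
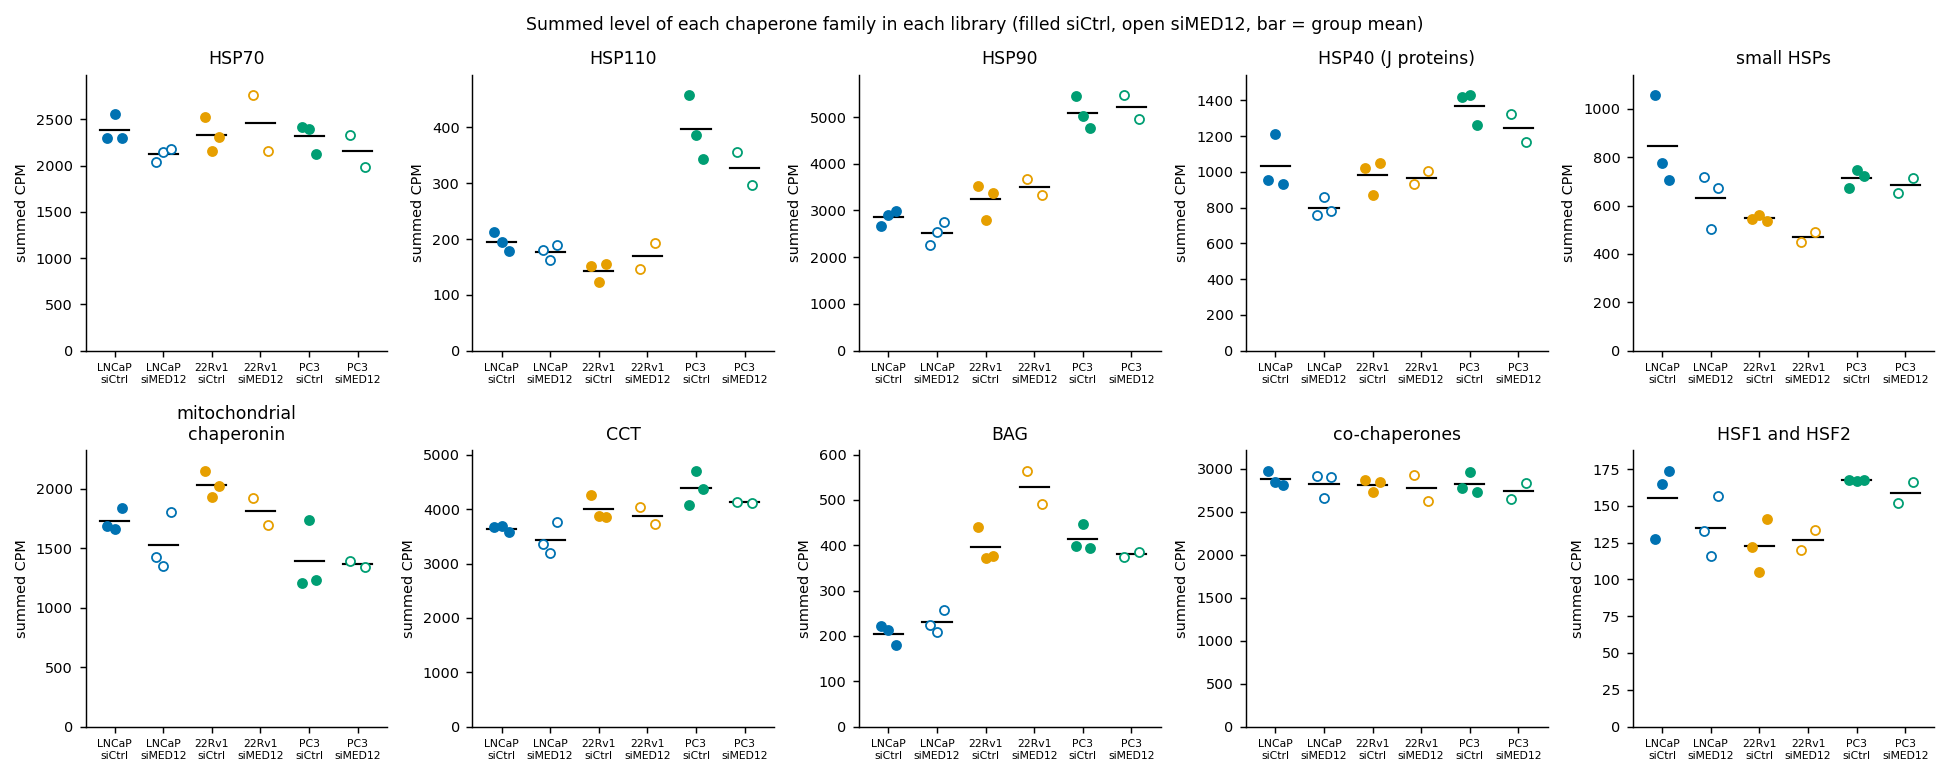
Summed CPM of each of the 10 families in every library, filled circles for siCtrl and open circles for siMED12, with the group mean as a bar and the axis starting at 0. The HSP90 sum is 4768 to 5452 CPM in PC3 siCtrl against 2677 to 3527 in the siCtrl libraries of the other lines, and the HSP40 sum of LNCaP is lower in siMED12 than in siCtrl in every library.

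The second comparison asked how siMED12 spheroids differed from siCtrl spheroids in these genes in each line. In LNCaP 2 of the 45 genes passed the edgeR test, both lower in siMED12 (0.416% of all tested genes were called). They were DNAJB1 and HSPA1B, a heat-inducible J protein and a heat-inducible HSP70 that work as a pair. The median log2 fold change over the 45 genes was −0.06, against −0.00 over all tested genes.

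DNAJB1 was at 288, 437 and 258 CPM in the LNCaP siCtrl libraries and at 109, 98.8 and 96.6 in the siMED12 libraries. The groups did not overlap, and the siMED12 libraries were close to the level of 22Rv1. It fell by 1.69 ± 0.17 on the log2 scale (SE, edgeR adjusted p = 2.4e-07), from a mean of 328 ± 95.9 to 102 ± 6.70 CPM (SD, n = 3). It was lower in 3 of 3 siMED12 libraries and passed the test under all 13 alternatives, with fold changes from −1.84 to −1.41 and adjusted p up to 1.8e-05.

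HSPA1B was at 182, 212 and 149 CPM in the LNCaP siCtrl libraries and at 88.1, 109 and 55.2 in the siMED12 libraries. Again the groups did not overlap, with a log2 fold change of −1.11 ± 0.20 and an edgeR adjusted p of 0.0029. Without LNCaP siCtrl replicate 2, the library with the highest level of DNAJB1 and HSPA1B, it was −0.96 with an adjusted p of 0.069, while over all 14 alternatives adjusted p ran from 1.8e-07 to 0.069. HSPA1A had 4, 2 and 2 counts in siCtrl and 1, 0 and 1 in siMED12, a ratio of 4.16 with an exact 95% interval of 0.83 to 40.2, so no difference could be shown at this depth. With the counts of both genes summed, the log2 fold change was −1.12 (adjusted p = 0.0021).

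Beyond DNAJB1 and HSPA1B, edgeR called none of the 45 genes in LNCaP, while 6 in all had an unadjusted p under 0.05 (7.34% of all tested genes), and DESeq2 and limma also called 2. Without DNAJB1 the HSP40 sum was 705 ± 60.3 CPM in siCtrl and 698 ± 56.8 in siMED12 (SD, n = 3), where with it the sums were 1033 ± 155.6 and 799 ± 52.5. Without HSPA1A and HSPA1B the HSP70 sum was 2108 to 2343 CPM in siCtrl and 1949 to 2121 in siMED12, overlapping by a small margin. The small heat shock protein sum, most of it HSPB1, was 706 to 1057 CPM in siCtrl and 504 to 719 in siMED12, with overlapping groups. The sums without single genes were chosen after the values were seen. The medians of the log2 fold changes were −0.15 over the 6 HSP70 genes, 0.00 over the 8 tested HSP40 genes, −0.13 over the 2 HSP90 genes and −0.06 over the 8 CCT genes. HSP90AA1 was at −0.06 (95% interval −0.29 to 0.18) and HSP90AB1 at −0.21 (−0.44 to 0.02). HSPA8 was at −0.10 (−0.36 to 0.15) and HSPH1 at −0.29 (−0.83 to 0.25), and BAG3, another heat-inducible gene, at −0.10 (−0.51 to 0.31). HSPD1 was at −0.19 (−0.45 to 0.07), HSPE1 at 0.05 (−0.31 to 0.40), TCP1 at −0.19 (−0.42 to 0.04), DNAJA1 at −0.20 (−0.50 to 0.10) and HSF1 at −0.26 (−0.58 to 0.05). None of these 10 passed the test.

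HSPB1 was at 968, 698 and 626 CPM in LNCaP siCtrl and 639, 448 and 608 in siMED12. The groups overlapped by replicate 3 of siCtrl and replicate 1 of siMED12. Its log2 fold change was −0.43 ± 0.14 with an edgeR adjusted p of 0.29. The LNCaP libraries of the same replicate number deviated together, and with the replicate number as a block the fold change was −0.42 with an adjusted p of 0.031. In that paired fit 3 of the 45 genes were lower, where 1.11% of all tested genes were called.

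In 8 of the 45 genes the LNCaP groups did not overlap, where this held for 12.6% of all tested genes. HSPA1A, HSPA1B, HSPA8, DNAJA1 and DNAJB1 were lower and CCT5, BAG1 and AHSA1 higher in all siMED12 libraries. For HSPA1A this rests on 4, 2 and 2 counts against 1, 0 and 1. The lowest HSPA8 level in siCtrl was 1797 CPM, against a highest of 1789 in siMED12. AHSA1, which stimulates the ATP use of HSP90, was at 121, 113 and 89.0 CPM in siCtrl and 164, 155 and 137 in siMED12, a log2 fold change of 0.51 ± 0.17 that did not pass adjustment (edgeR adjusted p = 0.29). Beside these values, the 4 androgen-regulated line markers summed to 3329 to 4318 CPM in LNCaP siMED12 against 5158 to 5910 in siCtrl, the 5 PC3 markers to 48.0 to 120 against 78.8 to 154, and mitochondrially encoded genes took 10.3% to 12.9% of counts against 8.6% to 10.1%. Their part in the LNCaP results was not tested.

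**Figure D4:**
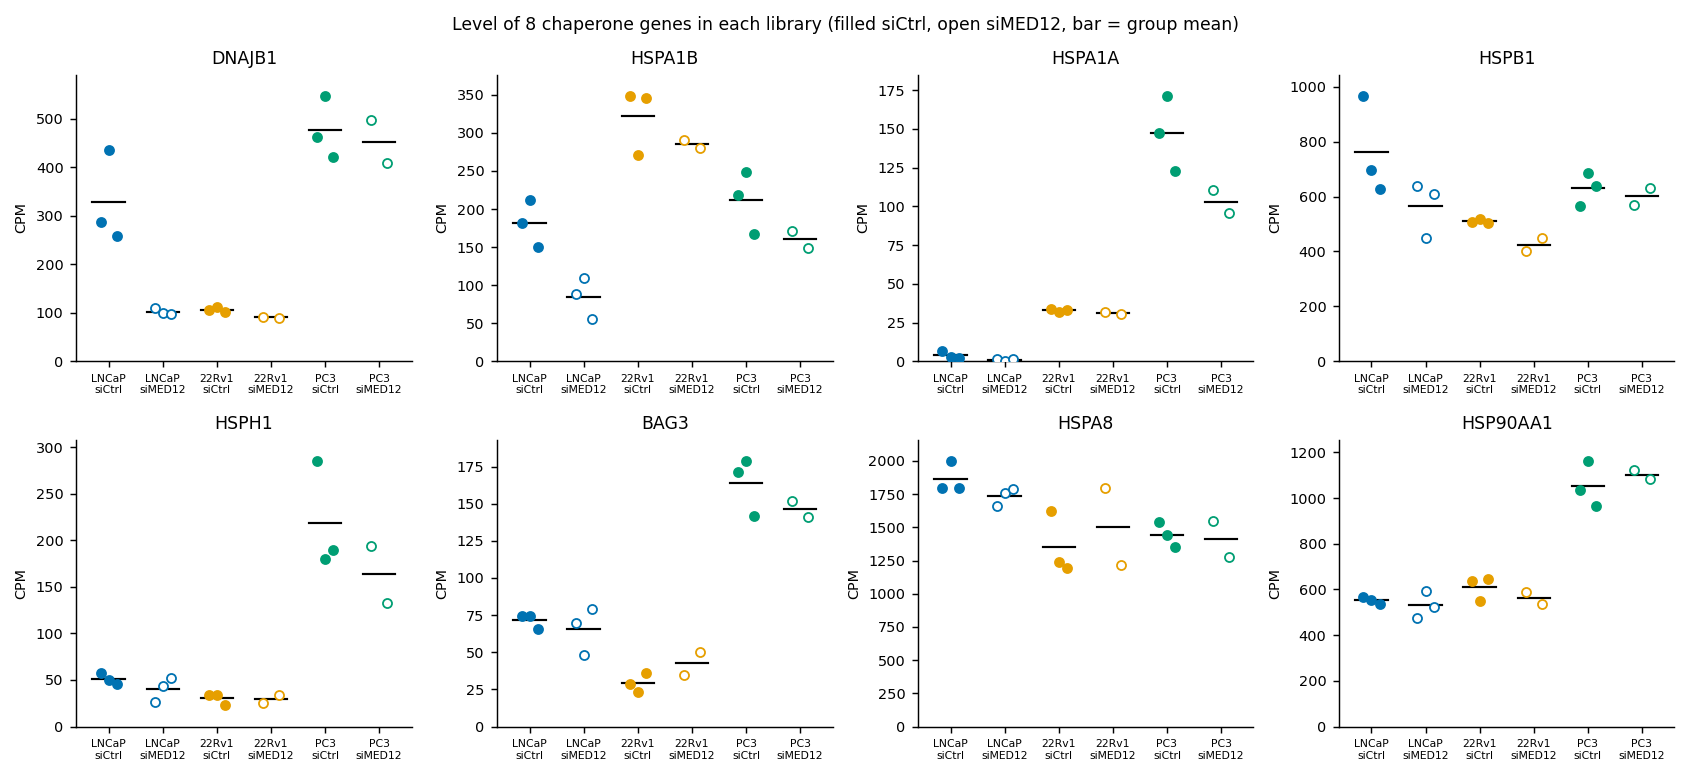
CPM of 8 genes in each of the 16 libraries (filled siCtrl, open siMED12, bar for the group mean, axis starting at 0). DNAJB1 and HSPA1B are lower in all 3 LNCaP siMED12 libraries than in any LNCaP siCtrl library, while neither HSPA8 nor HSP90AA1 passed the edgeR test between the treatments in any line.

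In 22Rv1 edgeR called 0 of the 45 genes, where 1.84% of all tested genes were called. Without the third siMED12 libraries the share of all genes was 0.987% and again 0 of the 45 were called. DESeq2 and limma also called 0, and 1 gene had an unadjusted p under 0.05, against 11.7% of all tested genes. The groups did not overlap in 8 of the 45 genes, against 26.6% of all tested genes. DNAJB1 was at 107, 112 and 101 CPM in siCtrl and 92.2 and 89.8 in siMED12, a log2 fold change of −0.22 (95% interval −0.66 to 0.21). HSPA1B was at 349, 271 and 346 CPM in siCtrl and 290.5 and 280 in siMED12 (−0.18, interval −0.55 to 0.18), and HSPA1A at 31.8 to 33.8 and 30.8 to 31.8 CPM (−0.08, interval −0.64 to 0.48). The gene with an unadjusted p under 0.05 was BAG1, an exchange factor that also binds the anti-apoptotic protein BCL2. It was at 376, 324 and 321 CPM in siCtrl and 480 and 412 in siMED12, and its fold change of 0.39 ± 0.14 did not pass adjustment (edgeR adjusted p = 0.16). All 3 BAG genes had positive fold changes, with 0.56 (−0.09 to 1.21) for BAG2 and 0.49 (−0.07 to 1.06) for BAG3. The HSP70, HSP40, HSP90 and CCT medians were −0.01, 0.01, 0.02 and −0.06.

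In PC3 edgeR called 0 of the 45 genes, and 0% of all tested genes were called. DESeq2 and limma also called 0 of the 45, and 1 gene, HSPA1A, had an unadjusted p under 0.05, against 4.99% of all tested genes. HSPA1A was at 147, 171 and 123 CPM in siCtrl and 111 and 95.4 in siMED12. Both siMED12 libraries were below all siCtrl libraries, with a log2 fold change of −0.51 ± 0.19 and an edgeR adjusted p of 0.89. HSPA1B was at 218, 249 and 168 against 172 and 149 CPM (−0.40, 95% interval −0.82 to 0.02), with overlapping groups. DNAJB1 was at 462, 548 and 422 against 497 and 408 CPM (−0.07, interval −0.40 to 0.26). The groups did not overlap in 9 of the 45 genes, against 20.7% of all tested genes. The HSP70, HSP40, HSP90 and CCT medians were −0.23, −0.11, 0.05 and −0.08, and the median over all tested genes was −0.04. HSPH1 (−0.38, −0.80 to 0.03) and BAG3 (−0.16, −0.54 to 0.21) did not pass.

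**Figure D5:**
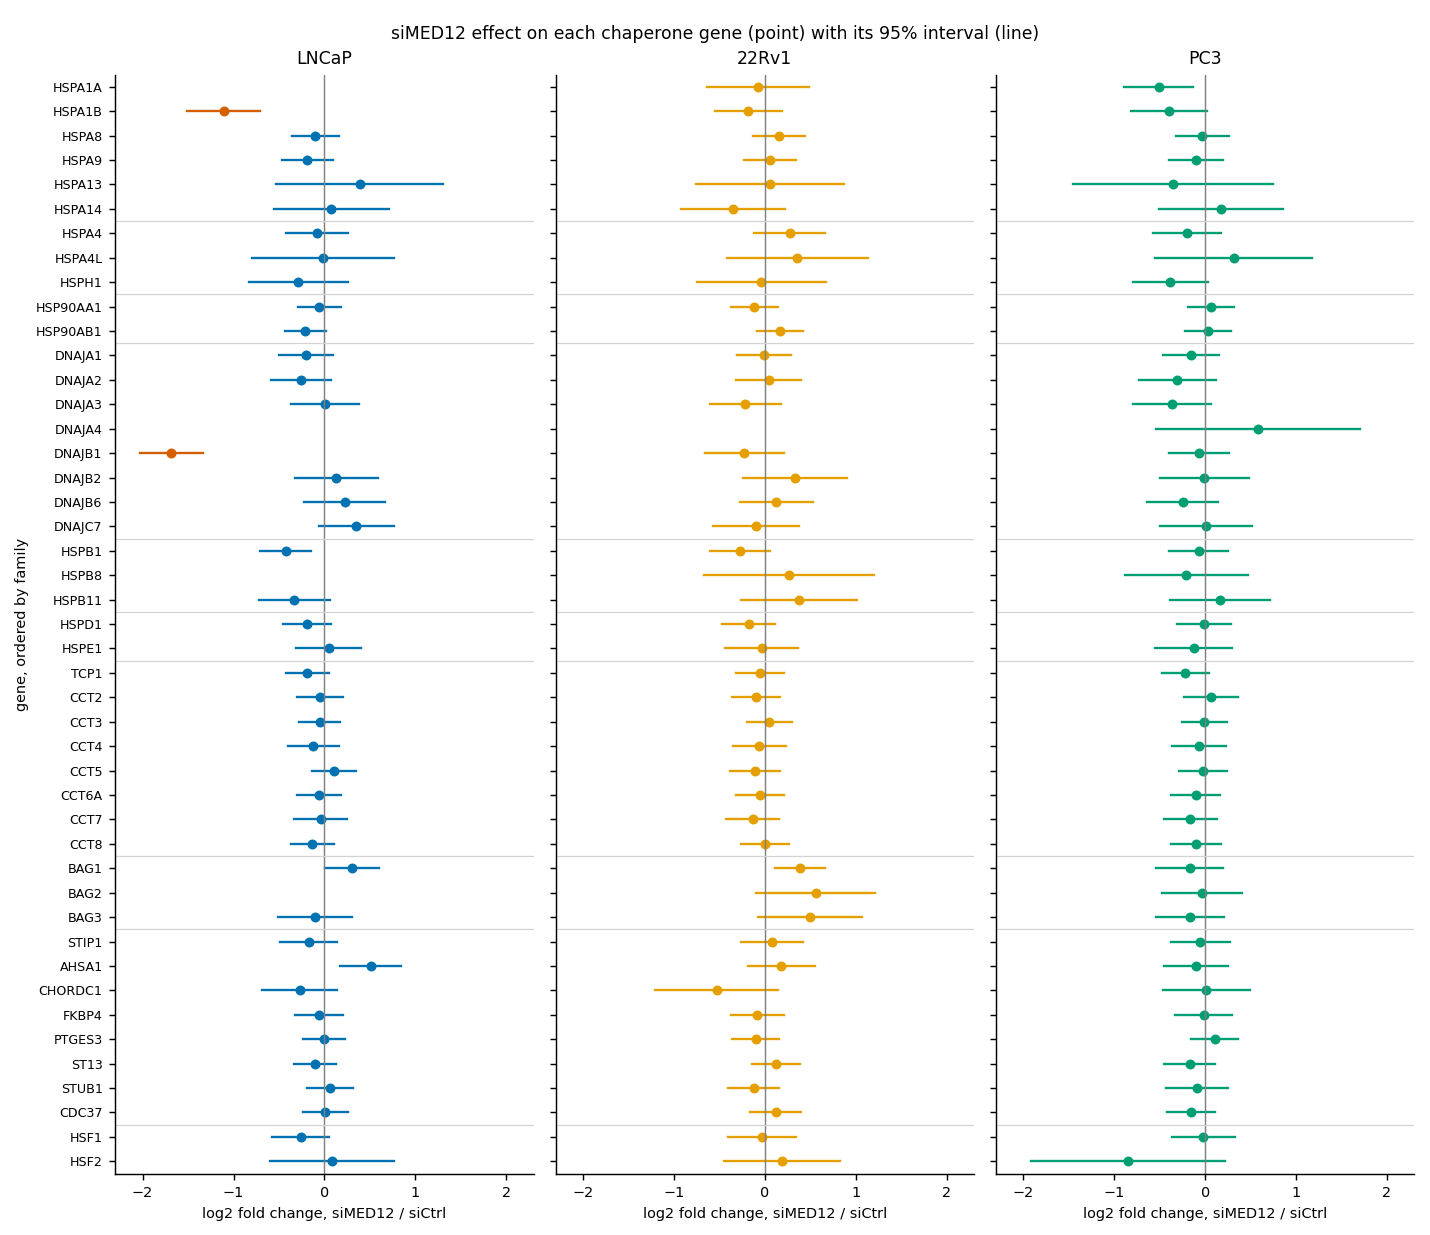
Log2 fold change of siMED12 over siCtrl (point) with its 95% interval (line) for the tested genes in each line, ordered by family, with genes past the edgeR threshold in orange. DNAJB1 and HSPA1B in LNCaP are the only orange points, and genes with fewer than 20 counts in a line (4 in LNCaP, 1 in 22Rv1) are not drawn there.

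Whether the effect differed between lines was tested by the difference of the effects. DNAJB1 was the 1 gene of the 45 past the threshold in 22Rv1 against LNCaP (0.189% of all genes called) and again in PC3 against LNCaP (0.0284% called), and both tests use the same LNCaP libraries. Its effect was less negative by 1.46 ± 0.28 in 22Rv1 (edgeR adjusted p = 0.019) and by 1.62 ± 0.24 in PC3 (adjusted p = 0.0011). The PC3 difference passed in all 18 alternatives (adjusted p up to 0.047). The 22Rv1 difference did not without the third siMED12 libraries of 22Rv1 and PC3 (1.47, adjusted p = 0.079), where 0.0178% of all genes were called. Nor did it pass without LNCaP siCtrl replicate 2 (1.17, adjusted p = 0.091), 22Rv1 siCtrl replicates 2 (0.051) or 3 (0.059), or 22Rv1 siMED12 replicates 1 (0.097) or 3 (0.057). For HSPA1B the difference of 22Rv1 from LNCaP was 0.93 ± 0.27 (adjusted p = 0.22), and with the replicate block 0.84 (adjusted p = 0.027, with 0.672% of all genes called). That difference also passed with all genes with a count (0.97, edgeR adjusted p = 0.021), where 68 genes in all were called. The difference of PC3 from LNCaP was 0.71 ± 0.28 (adjusted p = 0.94). Between PC3 and 22Rv1 edgeR called 0 of the 45 genes, DESeq2 and limma likewise 0, with 1 at an unadjusted p under 0.05 (9.16% of all genes) and 0.0946% of all genes called, and the difference for DNAJB1 was 0.15 (95% interval −0.40 to 0.70).

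Other genes of the pathway were read from 3 further lists. Of 26 other J protein genes 22 were tested and 0 were called in any line, with 2, 3 and 3 at an unadjusted p under 0.05 in LNCaP, 22Rv1 and PC3, where 7.34%, 11.7% and 4.99% of all tested genes were. Of the 6 prefoldin genes, whose product hands actin and tubulin to CCT, 5 were tested and 0 called, with 0 at an unadjusted p under 0.05 in any line. Of 16 other co-chaperones 15 were tested, and 1 was lower in 22Rv1: FKBP5, an androgen-induced HSP90 co-chaperone (log2 fold change −0.92 ± 0.23, SE, edgeR adjusted p = 0.023). In 22Rv1 1.84% of all tested genes were called. The FKBP5 call was not checked without the third siMED12 libraries or under the other alternatives. FKBP5 was the only call among these co-chaperones in the 3 lines, and in LNCaP and PC3 0 had an unadjusted p under 0.05.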

How the data were processed

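BRB-seq 3′ tag libraries were aligned and counted by the authors with STARsolo against Gencode 43 (GRCh38.p13). Collapse of molecular identifiers is not given in the sources used here. The deposited table holds raw counts of 62703 genes in 16 libraries, and the second deposited table log2 CPM of the 10566 genes kept by the edgeR filter. Recomputing it from the counts gave the same values within 5e-14. Counts were tested in R 4.3.3 with edgeR 4.0.16 (quasi-likelihood, 2-sided, filter minimum count 10 and total 15, TMM scaling) in 1 fit of the 6 group means, adjusted by Benjamini-Hochberg over 10566 genes at a threshold of 0.05. SE is the log2 fold change divided by the square root of F. Levels are TMM-scaled CPM. A count of 0 allows up to 3 counts, 3.15 to 6.22 CPM by library. Over the 14 replicate pairs the variance between libraries was 1.6 to 3.43 times that of counting alone, so none was taken for a copy.

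The genes and lists were chosen with earlier results of these data known. Named genes were those past the threshold, a list of 15 and, between lines, the 3 largest differences of each sign at 20 CPM or more. Other names were chosen after their values were seen. Same-numbered libraries deviated together with r = 0.132 to 0.177 in the 3 LNCaP pairs, over 6720 genes, so the numbers were taken to pair the LNCaP libraries. The main fit had no replicate block. Alternatives were other scaling (RLE), DESeq2 1.42.0, limma 3.58.1 on log2 CPM, no filter, a replicate block, libraries left out, HSPA1A and HSPA1B summed and, added after seeing the data, edgeR's legacy test. The script was tested on simulated data. Gene positions come from Gencode 44 on GRCh38, and no protein sequences were used. A further list of pathway genes and 1 line marker are not reported here.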

Additional observations from a re-analysis of the deposited data

Results flagged for a closer look

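The siMED12 effect on DNAJB1, the heat-inducible J protein, differed between the lines by a test of the difference itself. It was less negative by 1.46 ± 0.28 on the log2 scale in 22Rv1 than in LNCaP (SE, edgeR adjusted p = 0.019), and by 1.62 ± 0.24 in PC3 than in LNCaP (adjusted p = 0.0011). The 22Rv1 difference did not pass in 6 of 18 alternatives, among them the one without the third siMED12 libraries of 22Rv1 and PC3 (1.47, adjusted p = 0.079), while the PC3 difference passed in all 18. Both values rest on the same 6 LNCaP libraries, of which the siMED12 ones were lower in 3 of 3. No sample was singled out by its distance from its group, since every group had fewer than 4 libraries.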

How the results depend on the processing

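The number of genes called was within 1.5 times the main count under every alternative for the effects in 22Rv1 and PC3, the 3 siCtrl comparisons and the differences of PC3 from the other lines. In LNCaP it was 1 to 2 with single libraries left out. For the difference of 22Rv1 from LNCaP it was 2 with all genes with a count, 2 with the replicate block, 0 without the third siMED12 libraries of 22Rv1 and PC3, and 0 to 1 with single libraries left out. The cause was not tested. In LNCaP the replicate block added HSPB1, and it changed no other named call within a line. Between siCtrl lines it added HSPD1 for 22Rv1 against LNCaP (0.25, edgeR adjusted p = 0.018) and HSPB1 for PC3 against LNCaP (−0.26, adjusted p = 0.031) and against 22Rv1 (0.30, adjusted p = 0.017). With DESeq2 the lower HSPH1 in 22Rv1 than in LNCaP, HSPD1 in PC3 than in LNCaP and HSF2 in PC3 than in 22Rv1 had adjusted p of 0.052, 0.078 and 0.079, and with all genes with a count TCP1 in PC3 against LNCaP had 0.073. Same-numbered libraries had r = 0.19 and 0.253 in 22Rv1, and 0.117 and 0.0787 in PC3. Whether these libraries were paired cannot be told from 2 pairs in each line. The block called 0 of the 45 genes in either line.

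Several named effects that did not pass the test lay so near 0 that their sign changed. In 22Rv1 HSPH1 was at 0.031 with the replicate block, TCP1 at 0.016 without the third libraries, DNAJA1 at 0.0023 with limma, and DNAJA1, HSPE1 and HSF1 at 0.024, 0.0036 and 0.00029 with all genes with a count. In PC3 DNAJB1, HSPB1 and HSPD1 were at 0.036, 0.0011 and 0.19 with the replicate block, HSPD1 at 0.0057 with limma, and HSPA8, DNAJB1 and HSPD1 at 0.090, 0.047 and 0.018 without the third libraries. HSPE1 between PC3 and LNCaP siCtrl was at 0.031 (RLE), 0.030 (DESeq2), 0.0042 (all genes with a count), 0.0064 (replicate block) and 0.0084 (without the third libraries). With single libraries left out, the LNCaP effects of BAG3 (−0.27 to 0.079), HSP90AA1 (−0.14 to 0.028) and HSPE1 (−0.069 to 0.17) changed sign. So did those in 22Rv1 of DNAJA1 (−0.078 to 0.10), HSF1 (−0.10 to 0.0084), HSPA8 (−0.17 to 0.41), HSPE1 (−0.15 to 0.072), HSPH1 (−0.23 to 0.14) and TCP1 (−0.15 to 0.014). In PC3 this held for DNAJB1 (−0.23 to 0.057), HSF1 (−0.099 to 0.076), HSP90AB1 (−0.055 to 0.11), HSPA8 (−0.18 to 0.10), HSPB1 (−0.14 to 0.0033), HSPD1 (−0.12 to 0.19) and HSPE1 (−0.36 to 0.15). Between PC3 and 22Rv1 siCtrl it held for DNAJA1 (−0.040 to 0.16), HSPA8 (−0.041 to 0.24) and HSPE1 (−0.067 to 0.11), and for HSPE1 also between 22Rv1 and LNCaP (−0.12 to 0.032) and between PC3 and LNCaP (−0.073 to 0.081). Depth limits HSPA1A, HSPB8, DNAJA4 and BAG2 in LNCaP, whose counts there were at or near 0.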
